A study of Mus musculus with 12 samples.

Results

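The 9 genes described here encode proteins that carry signals inside the cell: Stat5a, Pik3r1, Pik3r3, Map2k1, Map2k4, Mapk10, Prkcb, Prkce and Prkd1. They were picked by symbol from the genes that differed among the 4 groups in the study's overall model on these same arrays, so that the differences given below describe chosen genes and carry no test. All 9 were found on the arrays, among 18194 genes with 1 symbol and 45101 probe sets (the sets of short probes that measure a transcript), and each is reported from 1 probe set. All differences are between log2 expression signals, so that a difference of 1 is 2-fold.

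Phosphoinositide 3-kinase (PI3K) is a lipid kinase recruited to activated receptors by its regulatory subunits, and it acts through AKT on growth and survival. Mitogen-activated protein kinases (MAPK) act at the end of relays in which a MAP2K phosphorylates a MAPK. Many protein kinase C (PKC) isoforms answer to diacylglycerol and some also to calcium, with protein kinase D as a target. STAT5 proteins are transcription factors phosphorylated by JAK kinases under cytokine, prolactin and growth hormone receptors. The estrogen receptor ESR1 is a nuclear receptor that binds DNA at estrogen response elements and is also known to meet PI3K and MAPK signalling in the cytoplasm of estrogen target cells.

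The study asked which oviductal transcripts depend on ESR1 in immature mice, with and without gonadotropin stimulation, and measured RNA of whole oviducts on 12 arrays in 4 groups of 3. PMSG-treated ESR1KO and PMSG-treated WT mice received 5 IU of pregnant mare serum gonadotropin, which stimulates follicle growth and ovarian estradiol, at 23 days of age, and their oviducts were collected 48 h later. ESR1KO and WT mice were untreated and collected at 23 days. The ESR1KO mice were ESR1-/-, with or without the Zp3cre transgene, whose promoter is active in the growing oocyte, and the WT mice were litter controls of genotype ESR1flox/-, again with or without Zp3cre, on a C57BL/6 background. The animals called WT therefore carried 1 deleted copy of Esr1, and the deletion of the ESR1KO mice was in every tissue, the ovary included. PMSG-treated mice were also 2 days older than untreated ones, so that age and PMSG cannot be told apart. Each array held RNA pooled from 3 to 4 mice, and the organ was not separated into cell types, so that fewer cells of a type and less RNA per cell cannot be told apart.

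The Esr1 probe set, reported first as the targeted gene, gave 10.11, 10.62 and 10.56 in PMSG-treated ESR1KO oviducts, against 12.62, 12.82 and 12.21 in PMSG-treated WT oviducts. It gave 10.42, 12.13 and 11.05 in ESR1KO oviducts, against 12.94, 12.92 and 13.05 in WT oviducts. All ESR1KO arrays were below all WT arrays, with untreated ESR1KO replicate 2 nearest to WT, and where this probe set lies relative to the deleted part of Esr1 is not given in the sources used here. In the untreated ESR1KO arrays the oviduct's own markers were bright (Ovgp1 15.94, Pax8 11.07, Foxj1 11.69), whereas all 5 T cell markers and the oocyte genes Zp3 (1.86), Gdf9 (1.65) and Oosp1 (2.01) were near background, set here as a mean under 4. Of the 7 listed ovary markers, which include these oocyte genes, 2 were not near background, Inha (8.04) and Inhbb (10.41).

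The sequence before the annotated starts of the members was searched because ESR1 and STAT5 bind known DNA motifs. The RefSeq promoter table (build GRCm38.p6) held 14 starts for 8 of the 9 genes, Prkce being the exception, and the 250 bases before each start were read on both strands. No window held the full estrogen response element GGTCANNNTGACC, which 0.0639% of all 32851 windows held. Its half-site, GGTCA or on the other strand TGACC, was present in 6 of the 14 windows, from 5 genes, beside 35.2% of all windows. The STAT5 motif TTCNNNGAA, the same on both strands, was present in 1 of the 14 windows, that of Map2k4, beside 7.02% of all windows. The first Stat5a window held 3 half-sites, and 1.51% of all windows held at least 3. A letter match is not a bound site. The windows shown are both starts of Stat5a, which had the widest difference between genotypes, Map2k4 for the STAT5 motif and Prkd1 for a half-site before a gene that was higher in ESR1KO oviducts; capitals mark the motifs.
Stat5a, first start, plus strand, chr11:100859406-100859655: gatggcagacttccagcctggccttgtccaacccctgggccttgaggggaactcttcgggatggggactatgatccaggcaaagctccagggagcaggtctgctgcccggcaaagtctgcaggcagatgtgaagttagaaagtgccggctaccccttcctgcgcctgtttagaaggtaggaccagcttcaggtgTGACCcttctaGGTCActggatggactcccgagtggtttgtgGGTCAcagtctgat
Stat5a, second start, plus strand, chr11:100860234-100860483: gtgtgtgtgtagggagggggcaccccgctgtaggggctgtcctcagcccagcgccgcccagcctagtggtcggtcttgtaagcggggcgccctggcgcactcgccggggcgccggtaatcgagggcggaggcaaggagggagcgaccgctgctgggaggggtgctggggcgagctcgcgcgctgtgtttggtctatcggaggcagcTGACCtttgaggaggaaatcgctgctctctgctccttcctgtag
Map2k4, upstream start, minus strand, chr11:65788360-65788609: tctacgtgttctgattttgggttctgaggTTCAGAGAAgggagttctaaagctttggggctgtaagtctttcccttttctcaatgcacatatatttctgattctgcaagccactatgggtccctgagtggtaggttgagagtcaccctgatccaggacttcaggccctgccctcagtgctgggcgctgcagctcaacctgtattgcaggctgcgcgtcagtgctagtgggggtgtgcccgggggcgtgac
Prkd1, minus strand, chr12:50649250-50649499: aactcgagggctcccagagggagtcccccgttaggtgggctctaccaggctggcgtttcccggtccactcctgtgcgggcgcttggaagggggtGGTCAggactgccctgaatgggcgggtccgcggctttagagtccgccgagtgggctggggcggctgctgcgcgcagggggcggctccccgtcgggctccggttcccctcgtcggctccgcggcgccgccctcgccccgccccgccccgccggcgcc

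With PMSG, all 9 genes were called between the genotypes, where called means an adjusted p under 0.05 in limma, a linear model with moderated variances, and at least a 2-fold difference. This stood beside 4.48% of all 45101 probe sets, and beside 48.3% of the 1998 probe sets whose rows could be matched to a gene name, which are the study's own selection. In PMSG-treated ESR1KO oviducts 6 were lower (Stat5a, Pik3r3, Map2k1, Map2k4, Mapk10 and Prkce), beside 1.72% of all and 20.0% of matched probe sets, and 3 were higher (Pik3r1, Prkcb and Prkd1), beside 2.76% of all and 28.3% of matched probe sets. No gene had overlapping groups, beside 19.6% of all and 93.1% of matched probe sets without overlap. Because these arrays chose the genes, nothing is read from these counts. The plot of the signal on each array shows the 4 groups gene by gene.

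**Figure D1:**
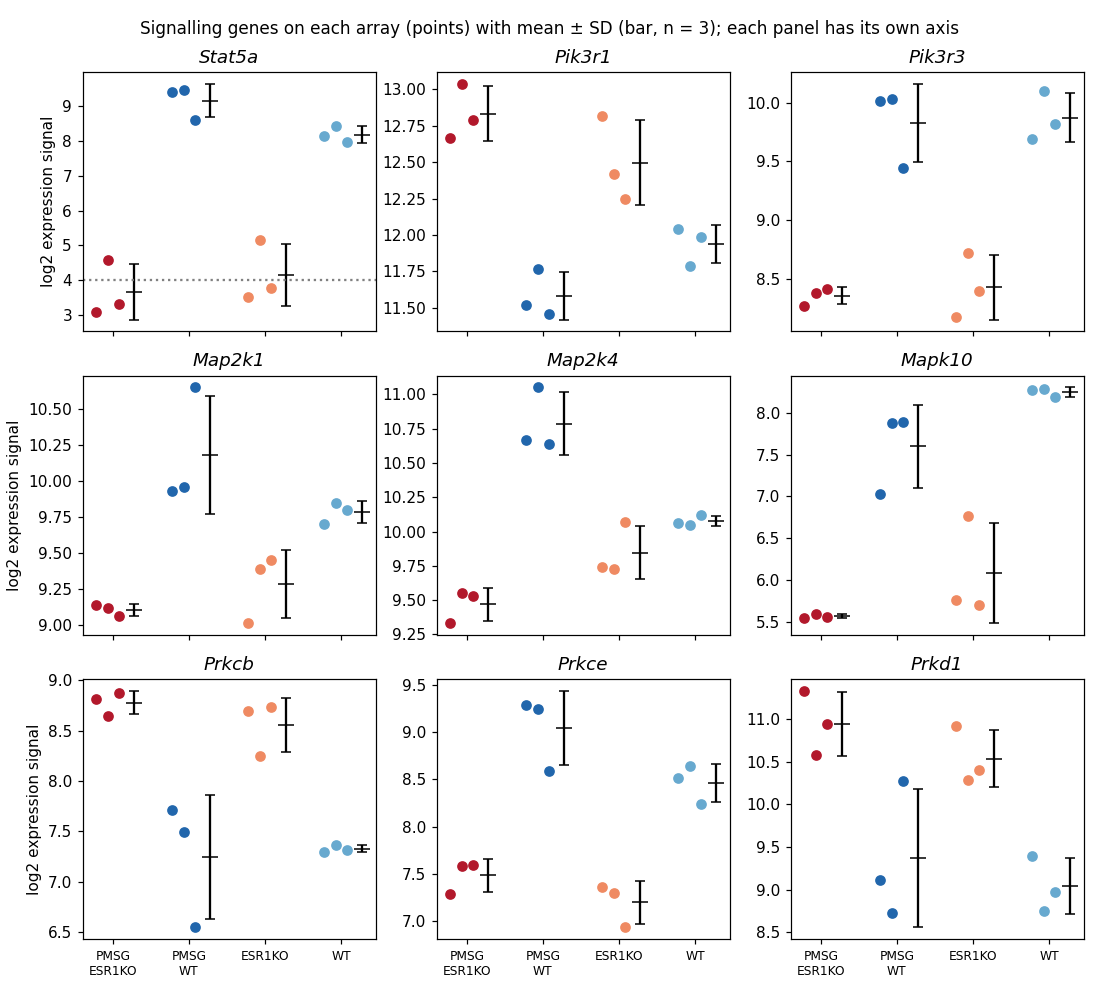
The log2 expression signal of each of the 9 genes (vertical axis, a separate scale in each panel) on each array (points) in the 4 groups (horizontal axis), with the mean and SD of 3 arrays beside them and a dotted line at 4, the limit for near background. Stat5a lay between 3.11 and 5.16 on the 6 ESR1KO arrays and between 7.96 and 9.46 on the 6 WT arrays.

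Stat5a showed the widest gap between genotypes of the 9. Its signal was 3.11, 4.59 and 3.33 in PMSG-treated ESR1KO oviducts, against 9.39, 9.46 and 8.59 in PMSG-treated WT oviducts. In untreated mice it was 3.53, 5.16 and 3.78 in ESR1KO oviducts, against 8.13, 8.43 and 7.96 in WT oviducts. The groups were far apart in both settings, and the highest ESR1KO array with or without PMSG was replicate 2. The mean of PMSG-treated ESR1KO oviducts, 3.68 ± 0.80 (SD, n = 3), was near background, where signals are compressed. The limit of 4 itself lay 5.15 on the log2 scale below the mean of PMSG-treated WT oviducts. This is not a bound on the difference, since replicate 2 of PMSG-treated ESR1KO, at 4.59, was above 4. The fitted difference, -5.47 (SE 0.40), has an uncertain size. Without PMSG the fitted difference was -4.01 (SE 0.48), with 2 of the 3 ESR1KO arrays under 4. Both were called, and no fold is given. The means ran, from high to low, PMSG-treated WT, WT, ESR1KO and PMSG-treated ESR1KO, and the last pair overlapped. This row was located by 2 printed fold changes alone, and among 4 candidate rows in the untreated ESR1KO arrays the closest was the one annotated Stat5a. A further Stat5a probe set, located only in the untreated ESR1KO arrays, gave 7.15, 7.81 and 7.03 there, and its difference from WT was not analysed here.

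The regulatory subunits of PI3K ran in opposite directions. Pik3r1, the alpha subunit that binds and stabilises the catalytic subunit, had signals of 12.67, 13.04 and 12.79 in PMSG-treated ESR1KO oviducts, against 11.52, 11.77 and 11.46 in PMSG-treated WT oviducts. It had 12.82, 12.42 and 12.25 in ESR1KO oviducts, against 12.04, 11.79 and 11.99 in WT oviducts. The ESR1KO arrays were the higher ones in both settings without overlap, by 1.25 (SE 0.14, 2.38-fold) with PMSG, which was called, and by 0.56 (SE 0.16, 1.47-fold) without, which was not. Its lowest group was PMSG-treated WT, and the overlapping neighbours in the order of means were PMSG-treated ESR1KO and ESR1KO.

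Pik3r3, the gamma subunit, had signals of 8.27, 8.38 and 8.41 in PMSG-treated ESR1KO oviducts, against 10.01, 10.03 and 9.44 in PMSG-treated WT oviducts. It had 8.17, 8.72 and 8.39 in ESR1KO oviducts, against 9.69, 10.10 and 9.82 in WT oviducts. Every ESR1KO array was below every WT array, and the difference was -1.48 (SE 0.19, 2.78-fold) with PMSG and -1.44 (SE 0.19, 2.72-fold) without, both called, with -0.03 (SE 0.27) between the 2. Within each genotype the PMSG-treated and untreated arrays overlapped.

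In the MAPK relays the 3 members were lower in PMSG-treated ESR1KO oviducts, with different patterns in untreated mice. Map2k1 encodes MEK1, which phosphorylates ERK kinases. Its signal was 9.14, 9.12 and 9.06 in PMSG-treated ESR1KO oviducts, against 9.93, 9.96 and 10.65 in PMSG-treated WT oviducts, and 9.01, 9.39 and 9.45 in ESR1KO oviducts, against 9.70, 9.85 and 9.80 in WT oviducts. No ESR1KO array reached a WT array, and PMSG-treated WT replicate 3 stood above all others. The difference was -1.07 (SE 0.19) with PMSG, just inside the 2-fold limit at 2.10-fold, and -0.50 (SE 0.19, 1.42-fold) without, which was not called. Leaving out PMSG-treated WT replicate 3 brought it to -0.84 with PMSG, which is under 2-fold and not called. Just outside the limit lay Marcks, a membrane protein phosphorylated by PKC, at -0.98 and not called.

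Map2k4 encodes a kinase that phosphorylates JNK and p38 kinases. It had signals of 9.33, 9.55 and 9.53 in PMSG-treated ESR1KO oviducts, against 10.67, 11.05 and 10.64 in PMSG-treated WT oviducts. It had 9.74, 9.73 and 10.07 in ESR1KO oviducts, against 10.06, 10.05 and 10.12 in WT oviducts. With PMSG the genotypes were far apart (-1.31, SE 0.14, 2.49-fold, called), whereas without PMSG they overlapped (-0.23, SE 0.14, 1.18-fold, not called), the only one of the 9 genes to overlap between untreated genotypes.

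Mapk10 encodes JNK3, an isoform known mainly from brain, heart and testis. Its signal was 5.55, 5.60 and 5.57 in PMSG-treated ESR1KO oviducts, against 7.03, 7.88 and 7.89 in PMSG-treated WT oviducts. It was 5.77, 6.77 and 5.71 in ESR1KO oviducts, against 8.27, 8.28 and 8.18 in WT oviducts. All ESR1KO arrays were lower, with untreated ESR1KO replicate 2 nearest to WT, and the means of the 4 groups did not overlap with their neighbours. The fall was -2.03 (SE 0.24, 4.08-fold) with PMSG and -2.16 (SE 0.30, 4.47-fold) without, both called. Of the neuronal and Schwann cell markers on the array, 1 of 7 reached a mean of 4 in untreated ESR1KO oviducts (S100b, 8.33), and Snap25 (3.06), Syn1 (1.79) and Elavl4 (2.51) did not. These markers were not located in the other groups, so their levels in WT oviducts, where Mapk10 was higher, are not known here. A further Mapk10 probe set gave 8.40, 8.68 and 7.70 in the untreated ESR1KO arrays, and another, at a mean of 2.79, was near background.

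The PKC isoforms parted. Prkcb, the beta isoform, which needs calcium and diacylglycerol and is known from B cells and other leukocytes, had signals of 8.81, 8.65 and 8.87 in PMSG-treated ESR1KO oviducts, against 7.71, 7.49 and 6.55 in PMSG-treated WT oviducts. It had 8.69, 8.25 and 8.73 in ESR1KO oviducts, against 7.30, 7.37 and 7.32 in WT oviducts. All ESR1KO arrays were higher, by 1.53 (SE 0.27, 2.89-fold, called) with PMSG and by 1.23 (SE 0.27, 2.34-fold, not called) without. PMSG-treated WT replicate 3 was the lowest array, and without it the difference with PMSG was 1.18 and was still called.

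Prkce, the calcium-independent epsilon isoform, had signals of 7.28, 7.58 and 7.59 in PMSG-treated ESR1KO oviducts, against 9.29, 9.25 and 8.59 in PMSG-treated WT oviducts. It had 7.36, 7.29 and 6.93 in ESR1KO oviducts, against 8.51, 8.64 and 8.24 in WT oviducts. It fell by 1.56 (SE 0.22, 2.96-fold) with PMSG and by 1.27 (SE 0.21, 2.41-fold) without, and every ESR1KO array was below every WT array.

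Prkd1, protein kinase D, which is phosphorylated by PKC isoforms, had signals of 11.33, 10.58 and 10.94 in PMSG-treated ESR1KO oviducts, against 9.11, 8.72 and 10.28 in PMSG-treated WT oviducts. It had 10.92, 10.29 and 10.40 in ESR1KO oviducts, against 9.40, 8.75 and 8.97 in WT oviducts. The ESR1KO arrays were all higher, with PMSG-treated WT replicate 3 nearest to them. The difference was 1.58 (SE 0.38, 3.00-fold, called) with PMSG and 1.50 (SE 0.37, 2.83-fold, not called) without, and 2.04 with PMSG when that array was left out. Of the 9 calls with PMSG this was the least stable, lost without a variance trend, in the unmoderated model, under repeated quantile normalization, when the fit held just the 6 arrays of the comparison, and when any 1 of the WT or PMSG-treated ESR1KO arrays or PMSG-treated WT replicate 1 or 2 was left out.

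Without PMSG, 4 of the 9 genes were called, all lower in ESR1KO oviducts (Stat5a, Pik3r3, Mapk10 and Prkce), beside 18.1% of the 1998 matched probe sets, with 9.06% in each direction. The adjusted p of this comparison is an upper bound, unlike that with PMSG, so that the count is a lower bound. Prkcb (2.34-fold) and Prkd1 (2.83-fold) were over 2-fold higher in ESR1KO oviducts and not called. The genotypes did not overlap for 8, nor for 78.5% of the matched probe sets. Leaving out untreated ESR1KO replicate 2, the ESR1KO array nearest to the WT mean for 5 of the 9 genes, left the count at 4, with Stat5a at -4.51 and Mapk10 at -2.51. The count was 1, Stat5a, without WT replicate 2, and 6 without PMSG-treated WT replicate 3, which enters the fit only through the common spread and when left out added Prkcb and Prkd1. The plot of the differences between genotypes sets the 2 comparisons side by side; they share no arrays.

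**Figure D2:**
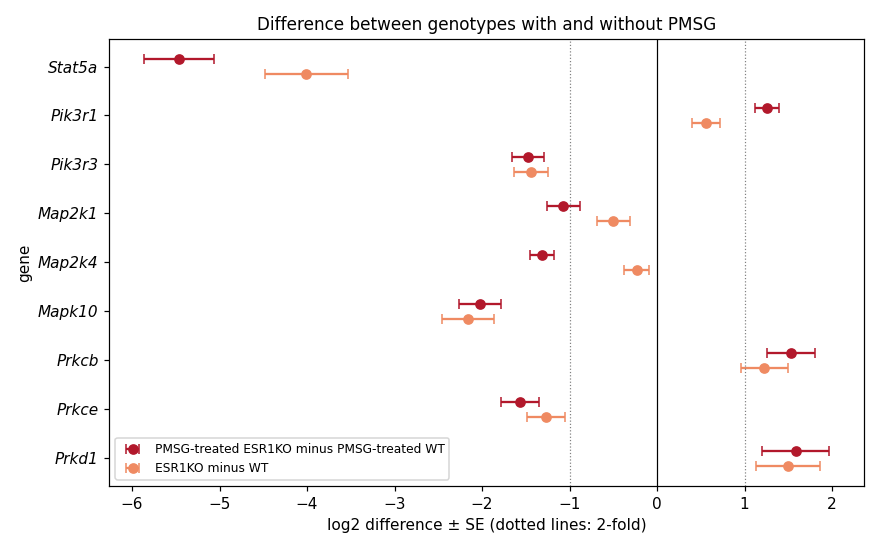
The log2 difference between genotypes with its SE (horizontal axis) for each of the 9 genes (vertical axis), with PMSG (dark red) and without (orange), and dotted lines at 2-fold. All 9 genes ran in the same direction in both, and the values of Map2k4 were -1.31 with PMSG and -0.23 without.

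No member was called between PMSG-treated and untreated oviducts of the same genotype, which also differed in age. In PMSG-treated WT against WT oviducts, 0 of 9 were called by limma, beside 0.251% of all probe sets, with 5 at an unadjusted p under 0.05, and the unmoderated model also called 0. In PMSG-treated ESR1KO against ESR1KO oviducts, 0 of 9 were called by limma, beside 0.100% of matched probe sets, with 1 at an unadjusted p under 0.05, and the unmoderated model again called 0. The WT groups did not overlap for 5 genes, nor for 13.5% of all and 53.1% of matched probe sets. These were Stat5a at 0.98 (SE 0.40), Map2k4 at 0.71 (SE 0.14) and Map2k1 at 0.40 (SE 0.19), all higher with PMSG, and Mapk10 at -0.64 (SE 0.24) and Pik3r1 at -0.36 (SE 0.14), both lower. In ESR1KO oviducts only Mapk10, at -0.51 (SE 0.30), and Map2k4, at -0.37 (SE 0.14), did not overlap, both lower with PMSG, nor did 21.5% of matched probe sets. The remaining differences with PMSG lay between -0.48 and 0.41 in ESR1KO and between -0.08 and 0.58 in WT oviducts. All 4 groups are those of the comparisons between genotypes, so that these values are not independent of those above. The interaction is the PMSG difference in ESR1KO less that in WT oviducts. It was called for 0 of 9 genes by limma, beside 0.651% of matched probe sets, and for 0 in the unmoderated model. Pik3r1 (0.70, SE 0.23) and Map2k4 (-1.08, SE 0.20) were at an unadjusted p under 0.05. The shares beside the calls are for the adjusted p. Shares of probe sets at an unadjusted p under 0.05 were not worked out, so nothing is read from counts at that cutoff.

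**Figure D3:**
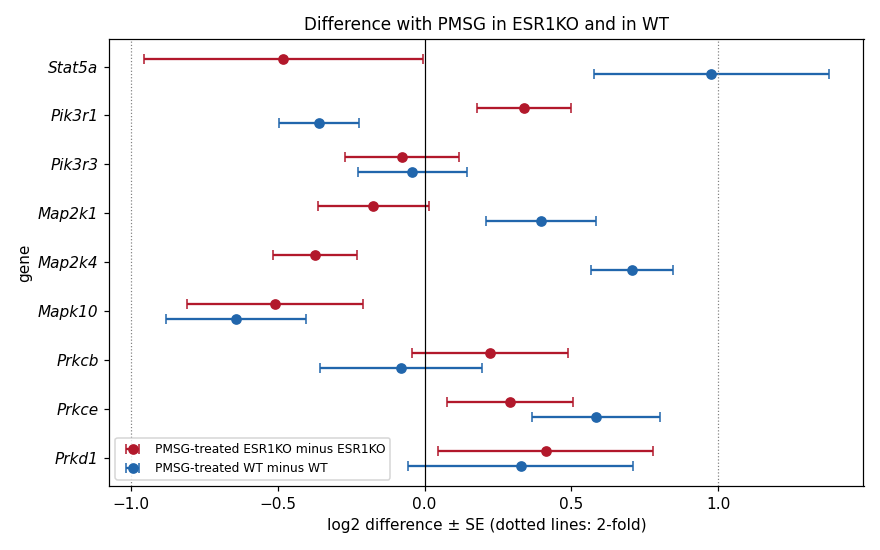
The log2 difference between PMSG-treated and untreated oviducts with its SE (horizontal axis) for each of the 9 genes (vertical axis), in ESR1KO (dark red) and in WT (blue) mice, with dotted lines at 2-fold. No gene reached 2-fold; Map2k4 was at -0.37 in ESR1KO and at 0.71 in WT.

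The rest of each pathway was read from lists of its known genes, of which only those in the held part of the study's gene list could be matched on all arrays, so that the counts are over genes the study had chosen as changed. Beside the counts of all 4 lists stands the share called of the 1998 matched probe sets. It was 48.3% with PMSG (28.3% higher and 20.0% lower) and 18.1% without, and nothing about a pathway is read from the counts. Of the PI3K list, 8 of 49 genes were matched, and 3 were called higher and 3 lower in PMSG-treated ESR1KO oviducts. Irs4, an adaptor under insulin-type receptors, rose by 3.54 (SE 0.50), to a mean of 10.21 ± 0.05 in PMSG-treated ESR1KO oviducts, against 6.67 ± 1.22 in PMSG-treated WT oviducts (SD, n = 3 each). Pik3ap1, an adaptor known from B cells, was higher by 1.39 (SE 0.33). Irs1, the insulin receptor substrate, changed by -1.32 (SE 0.11) and Sgk1, a kinase downstream of PI3K, by -1.52 (SE 0.28). The adaptors thus ran both ways, as the regulatory subunits did. The median difference of the list was 0.57, beside 0.36 over all matched probe sets, and without PMSG 0 were called higher and 1, Pik3r3, lower.

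Of the MAPK list, 11 of 75 genes were matched, with 1 called higher and 3 lower in PMSG-treated ESR1KO oviducts, the 3 being Map2k1, Map2k4 and Mapk10. The higher one was Mapk8ip1, a JNK scaffold, at 4.92 ± 0.07 in PMSG-treated ESR1KO oviducts, against 3.69 ± 0.07 in PMSG-treated WT oviducts, where the mean was near background. The other 7, among them Mapk14, the p38 alpha kinase, at 0.32 and Map3k3, a kinase above the MAP2K step, at -0.97, were not called. The median was -0.02 with PMSG and -0.23 without.

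Of the PKC and PKD list, 13 of 41 genes were matched, with 4 called higher and 3 lower in PMSG-treated ESR1KO oviducts. Beside Prkcb and Prkd1 the higher ones were Plcd3, a phospholipase C that releases diacylglycerol, at 1.47 (SE 0.30), and Dgka, a kinase that removes diacylglycerol, at 1.04 (SE 0.25). Beside Prkce the lower ones were Dgkh, another diacylglycerol kinase, at -2.18 (SE 0.38), and Plcl2, a phospholipase C-like protein, at -1.42 (SE 0.23). The isoforms Prkci (0.54) and Prkd3 (-0.15) were not called. Without PMSG, Prkce, Marcks (-1.16, SE 0.16) and Dgke (-1.47, SE 0.22) were called lower and none higher. Dgke, a diacylglycerol kinase, was near background in ESR1KO oviducts at 2.97 ± 0.35, against 4.44 ± 0.23 in WT oviducts. With PMSG it was near background in both genotypes, at 2.84 ± 0.27 in ESR1KO and 2.92 ± 0.29 in WT oviducts (-0.09, not called).

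Of the JAK and STAT list, 6 of 44 genes were matched, and Socs genes and the other Stat genes were not analysed here. Cish, an inhibitor whose gene is a known STAT5 target, was higher in PMSG-treated ESR1KO oviducts by 1.56 (SE 0.37, called). Its mean was 9.14 ± 0.76 there, against 7.58 ± 0.15 in PMSG-treated WT oviducts. Stat5a was the only gene of the list called lower, and others, Prlr (-0.94) among them, were lower and not called. Without PMSG, Cish had a difference of 1.23 (SE 0.37), which was not called. Prlr, the prolactin receptor upstream of STAT5, had means of 7.31 ± 0.16 in PMSG-treated ESR1KO oviducts, 8.24 ± 0.28 in PMSG-treated WT oviducts, 6.86 ± 0.39 in ESR1KO oviducts and 5.07 ± 0.17 in WT oviducts. It was the 1 gene of the 4 lists with a called interaction, at -2.73 (SE 0.33). Lepr, the leptin receptor, fell in ESR1KO oviducts without PMSG (-1.95, SE 0.35, called), and was at -0.24 with PMSG, which was not called.

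**Figure D4:**
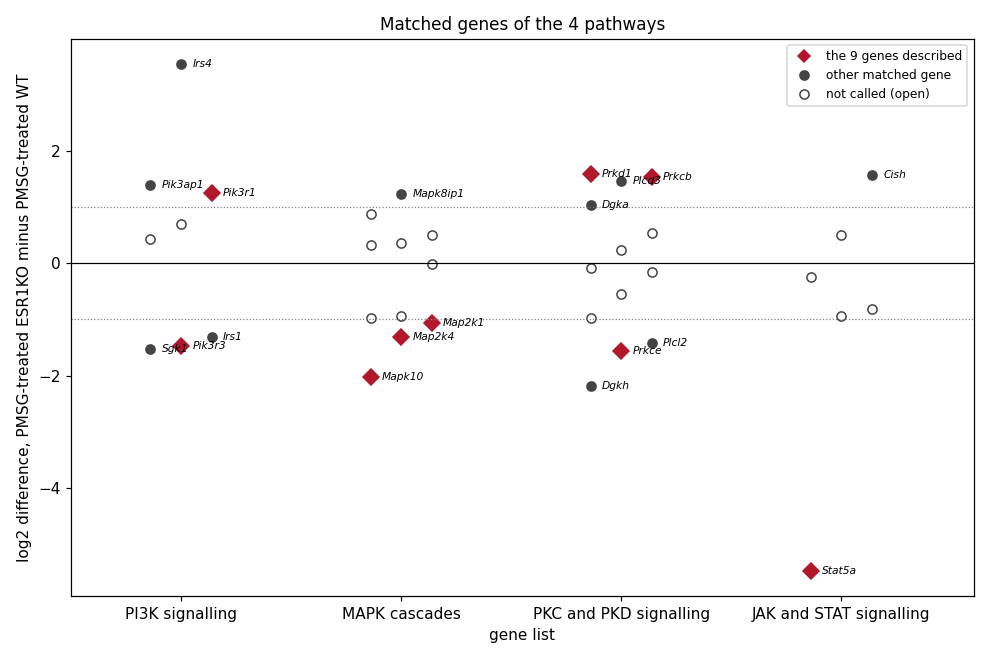
The log2 difference between genotypes with PMSG, ESR1KO minus WT (vertical axis), for each matched gene of the 4 pathway lists (horizontal axis), filled and named where called, with red diamonds for the 9 genes described and dotted lines at 2-fold. Irs4 is the highest point at 3.54 and Stat5a the lowest at -5.47, a fitted value against a group near background.

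Among the 1826 other matched genes with 1 symbol, the pattern over the 12 arrays most like that of Stat5a was that of Irs1 (Pearson r = 0.992), followed by Rassf5 (r = 0.990), a RAS effector. After each group's mean was taken off, r was 0.87 and 0.82. The pattern most like that of Pik3r3 was that of Ramp3 (r = 0.986), then Fam65b (r = 0.985), and most like that of Prkcb was that of Prkg2, a cGMP-dependent kinase (r = 0.986), then Nt5e (r = 0.982). For the other 6 the nearest genes were C1ra for Pik3r1 (r = 0.975), Prps2 for Map2k1 (r = 0.980), Padi1 for Map2k4 (r = 0.972), Fn1 for Mapk10 (r = 0.973), Adamts4 for Prkce (r = 0.972) and Prim1 for Prkd1 (r = 0.980). These values share the 12 arrays and their genotype groups and are descriptions.

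Among the 9 genes themselves, Stat5a and Pik3r3 had an r of 0.97 over the 12 arrays, and 0.73 once group means were taken off. Pik3r3 and Prkd1 had an r of -0.95, and -0.88 once group means were taken off, so that arrays of a group with more Prkd1 had less Pik3r3. Mapk10 and Pik3r1, at -0.80, had an r of -0.00 once group means were taken off. PMSG-treated WT replicate 3 was the array farthest from its group's median for 6 of the 9 genes. Neither this count nor the 5 of 9 given for untreated ESR1KO replicate 2 was made over other probe sets, so nothing is read from them.

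Some matched markers of other cell types differed between genotypes. Called with PMSG were S100a8, S100a9, Cd79b, Csf1r, Lrrn4, Pdgfra, Lum and Pecam1, and not called were Actg2, Kdr and Col1a2. Without PMSG, Actg2 (-2.26), Pecam1 (-3.24), Col1a2 (-2.34) and Lum (-2.44) were called lower in ESR1KO oviducts. Pdgfra (1.12), Lrrn4 (1.39) and S100a8 (3.57) were called higher there, and S100a9, Cd79b, Csf1r and Kdr were not called. The summed signal of the neutrophil genes S100a8 and S100a9, 2 of 4 markers matched, ran between 6.89 and 9.77 on the log2 scale in PMSG-treated ESR1KO oviducts, against 3.83 and 4.94 in PMSG-treated WT oviducts, and between 7.12 and 8.28 in ESR1KO oviducts, against 3.76 and 5.09 in WT oviducts. The B cell gene Cd79b, 1 of 4 markers matched, ran between 4.62 and 5.34 in PMSG-treated ESR1KO oviducts, against 3.26 and 3.34 in PMSG-treated WT oviducts, while Cd79a (2.03) and Ms4a1 (3.71) were near background in untreated ESR1KO oviducts. The macrophage gene Csf1r, 1 of 5 markers matched, ran between 9.87 and 10.4 in PMSG-treated ESR1KO oviducts, against 7.96 and 8.96 in PMSG-treated WT oviducts. In untreated ESR1KO oviducts the neutrophil marker Csf3r (3.85) and the macrophage marker Itgam (3.02) were also near background. The macrophage markers Adgre1 (7.88), Cd68 (7.58) and Cx3cr1 (9.02) were not. S100a8, S100a9, Cd79b and Csf1r ran in the direction of Prkcb, Pik3ap1 and Pik3r1, and their part in those values was not tested.

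The mesothelial gene Lrrn4, 1 of 4 markers matched, ran between 10.5 and 10.7 in PMSG-treated ESR1KO oviducts, against 8.66 and 9.76 in PMSG-treated WT oviducts. The smooth muscle gene Actg2, 1 of 7 matched, ran between 9.94 and 11.9 in PMSG-treated ESR1KO oviducts, against 12.4 and 12.8 in PMSG-treated WT oviducts. Its difference was -1.64 (SE 0.42, not called) with PMSG and -2.26 (SE 0.45, called) without, in the direction of Mapk10 and Prkce. The endothelial genes Kdr and Pecam1, 2 of 5 matched, had a summed signal between 7.85 and 8.26 in PMSG-treated ESR1KO oviducts, against 8.56 and 8.88 in PMSG-treated WT oviducts, with Pecam1 at -1.26 (SE 0.31, called) and Kdr at -0.23 (SE 0.21, not called). Of the stromal genes, 3 of 5 matched, Pdgfra was higher by 1.49 (SE 0.16) and Lum lower (-2.10, SE 0.31) in PMSG-treated ESR1KO oviducts, both called, and Col1a2 was at -1.13, not called. The Col1a2 probe set used was a weak one, with a mean of 4.41 in untreated ESR1KO oviducts. The brightest Col1a2 probe set had a mean of 14.01 there and was not located in the other groups. The part of these cell types in the values of the 9 genes was not tested.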

How the data were processed

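Oviductal RNA of 12 pools of mice was hybridised to Affymetrix Mouse Genome 430 2.0 arrays, 1 pool of 3 to 4 mice per array and 3 arrays in each of 4 groups. The deposited values are log2 expression signals that the authors made in Partek Genomics Suite 6.6, where GC-RMA removed background, arrays were quantile normalized and the probes of a set were summarised by median polish. This correction compresses weak signals, and no detection calls were used here. Array medians were 5.63 to 5.75, and the number of arrays limits the precision.

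Probe set names fit the 3 columns of untreated ESR1KO, and the other 9 share another row order. Columns of the 2 orders correlated at -0.146 to -0.123, and columns of 1 order at 0.959 or more. Rows were therefore located through the fold changes and p-values of the study's supplementary gene list, used only as keys. The 1997 rows of it held here, an alphabetical part, were all matched, within 8.76e-05 on the log2 scale. The annotated symbol, which the match did not use, named the same gene, by symbol or synonym, for 1895 of 1902 rows. Where a row had several symbols, any shared one was enough. Of the 1997 rows, 15 had a second candidate, of which the closest was taken. With Stat5a, located by 2 printed folds, there were 1998 rows. The match was tested on simulated tables.

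Linear models (limma 3.58.1, R 4.3.3, moderated with a variance trend, Benjamini-Hochberg adjustment) used all 45101 rows of the 9 columns for the genotypes under PMSG and for PMSG in WT. The other comparisons and the interaction were fitted on matched rows of 12 arrays, taking the prior variance (2.87 prior degrees of freedom) from that fit. They were adjusted as if 45101 tests had been run, an upper bound on the adjusted p, so that counts there are lower bounds. Calls needed an adjusted p under 0.05 and 2-fold (the interaction, the adjusted p only), and 4 was the limit for near background. The fits were checked on simulated data. The p-values measure the spread between pools. The members, gene lists and tests were chosen with earlier results of these data known. Named genes were the 9 members, Esr1, the 2 closest patterns to each member, of which the first is given for 6, up to 4 called genes per list and direction, and matched markers. Marcks, Mapk14, Map3k3, Prkci, Prkd3, Dgke, Prlr, Lepr and untreated ESR1KO marker levels were named after their values were seen. Columns of the authors' own comparisons were used only as keys. The alternatives dropped the variance trend, the fold minimum, probe sets of a mean under 4, arrays outside the comparison or single arrays. Others used an unmoderated model, repeated quantile normalization, or took replicate number as a block. The unmoderated model had the same arrays and adjustment as limma. For the genotypes under PMSG and for PMSG in WT it left out untreated ESR1KO. The study's model of genotype and PMSG held all 12 arrays.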

Additional observations from a re-analysis of the deposited data

Results flagged for a closer look

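The PMSG difference of Map2k4 ran in opposite directions in the 2 genotypes with no overlap of arrays, lower with PMSG in ESR1KO (9.33, 9.55 and 9.53, against 9.74, 9.73 and 10.07 untreated) and higher with PMSG in WT (10.67, 11.05 and 10.64, against 10.06, 10.05 and 10.12 untreated). The interaction was -1.08 (SE 0.20) and was not called by limma, whose adjusted p is an upper bound here.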

How the results depend on the processing

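The 9 calls between PMSG-treated ESR1KO and PMSG-treated WT numbered 8 without a variance trend, in the unmoderated model and under repeated quantile normalization, Prkd1 being lost each time, 6 with only the 6 arrays compared (Map2k1, Prkcb and Prkd1 lost), and 6 to 8 when an array was left out, 6 without PMSG-treated ESR1KO replicate 3. The 4 calls between ESR1KO and WT numbered 2 with only the 6 arrays compared (Mapk10 and Prkce lost), 3 in the unmoderated model, 5 once probe sets of a mean under 4 were dropped, and 1 to 6 when an array was left out, 1 without WT replicate 2. Prkce was lost there in the unmoderated model and without ESR1KO replicate 1 or 3 or any 1 WT array. The counts of 0 for both PMSG comparisons and the interaction stayed 0 under each alternative run.

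Every called difference kept its direction under each alternative run. Without PMSG-treated WT replicate 3, Prkcb was at 1.18 between PMSG-treated genotypes, and differences between PMSG-treated WT and WT that were not called turned sign for Prkcb (0.27), Prkd1 (-0.13) and Pik3r3 (0.15). Without ESR1KO replicate 2, those between PMSG-treated ESR1KO and ESR1KO turned sign for Pik3r3 (0.07) and Stat5a (0.02). Replicate numbers did not pair the arrays: over 18 pairs with the same number, r of deviations ran between -0.114 and 0.266, with 6 over 0.1. With the number as a replicate block, 9 members were called between the PMSG-treated genotypes, 4 between untreated genotypes and 0 in the other comparisons. Only log2 signals were used, so that no depth applies, and changes in signals under 4 are compressed.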

Other observations

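In the untreated ESR1KO arrays, whose rows carry probe set names, the 9 genes had 22 probe sets, of which 19 had a mean of at least 4. The other Pik3r1 probe sets had means of 12.57, 10.79 and 9.99, the other Map2k4 probe set 7.64, and the other Prkd1 probe set 9.12. The other Prkcb probe sets had means of 7.61 and 2.34, and the other Prkce probe sets 7.79, 6.16 and 3.09. These probe sets were not located in the other 3 groups, so that no difference is given for them.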
